A study of Mus musculus with 9 samples.

Results

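The apolipoprotein genes of mouse liver were examined in 9 livers, 1 RNA-seq library per mouse, and the 9 genes considered were Apoa1, Apoa2, Apoa4, Apoa5, Apob, Apoc1, Apoc3, Apoe and Apoh, taken by name from a matrix of 23746 rows. The mice were C57BL6J/Ola.Hsd males aged 10 to 16 weeks by the study's methods, and C57Bl/6 by the labels. Food was given ad libitum to 3 WT and 2 p21KO mice, and withheld for 24 h from another 2 WT and 2 p21KO mice. The p21KO mice lack Cdkn1a, which encodes the cell cycle inhibitor p21, in the whole body. The comparisons asked what fasting and the loss of p21 did to the liver transcriptome. Values are FPKM (Cufflinks' abundance, scaled to transcript length and to the number of mapped fragments), so the depth behind a value is unknown and no counting interval is given. Whole liver was sequenced, in which fewer cells of a type and less RNA per cell cannot be told apart.

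Apolipoproteins are the protein part of lipoprotein particles, which carry triglycerides and cholesterol in blood. Apob is the structural protein of very low density and low density lipoproteins, Apoa1 and Apoa2 are the main proteins of high density lipoproteins, and Apoe is a ligand for receptors that clear remnant particles. Apoc1 and Apoc3 restrain lipolysis or clearance of triglyceride-rich particles, Apoa5 promotes lipolysis, Apoa4 rides on triglyceride-rich and high density particles, and Apoh (beta-2-glycoprotein I) binds phospholipids. Hepatocytes make most of these proteins.

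The columns of the matrix do not share a row order. The gene names fit the library of p21KO fasted replicate 2 best. In the other 8 libraries a high value often stands some rows away from its name. Even in p21KO fasted replicate 2 the named row of Alb, a hepatocyte marker, held 0.0 FPKM, so a name there may also miss its value. Each gene was therefore given in every library as the FPKM on its named row and as the highest FPKM within 10 rows. An offset is the number of rows from the name to that value. A gene was read across libraries only where the highest value was at least 5 times the second highest within 10 rows in all 9 libraries, the name's own row held the highest value in p21KO fasted replicate 2, and the mean was at least 100 FPKM. This held for 81 genes, among them 2 of the 9 genes considered, Apoa2 and Apoh. The identity of a value that stands off its name rests on its size and position alone.

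Across the 81 genes, Pearson's r on the log2 scale between libraries of the same diet was 0.938 to 0.993 for the values read and 0.0036 to 0.515 for the named rows. Between libraries of different diets r was 0.833 to 0.922 for the values read and 0.0237 to 0.416 for the named rows. The 81 genes were chosen for a lone high value in every library, so this agreement cannot show that a value belongs to its name. Genes share libraries and are not independent replicates, so these are descriptions. In the other 8 libraries, 33.3% to 65.4% of the 81 genes had the value read on the named row. The summed FPKM per library was 349964.5 to 440780.1, and the highest single value was 18703 to 29662 FPKM in 7 libraries but 8367 and 12343 FPKM in the p21KO fasted libraries. Cdkn1a could not be read: its named row held 0 to 0.437 FPKM in 8 libraries and 2.27 FPKM in p21KO fasted replicate 2, and the highest value within 10 rows was only 1.02 to 1.72 times the second. The genotype labels were therefore not checked by the deleted gene. Of the 20 hepatocyte markers examined, 5 could be read (Ttr, Trf, Serpinc1, Hpx and Gc), and none of the markers of other cell types could.

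**Figure D1:**
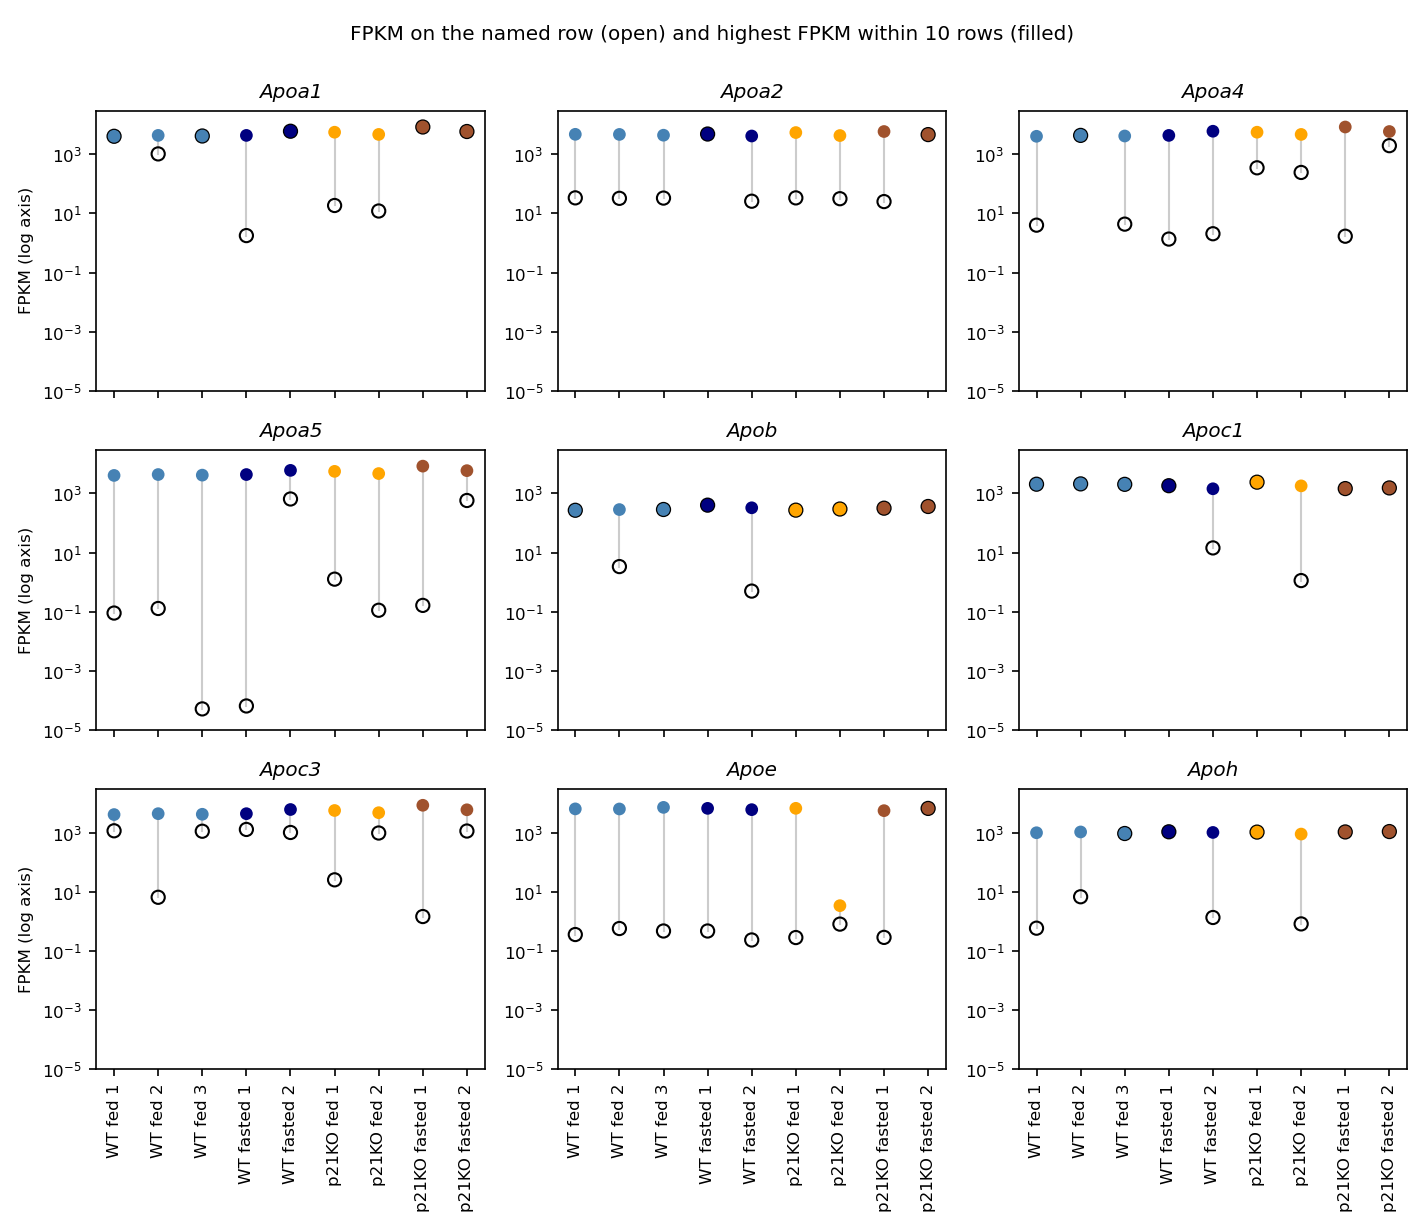
FPKM (log axis) of the 9 apolipoprotein genes in each of the 9 libraries. Open circles are the named row and filled circles, coloured by group, the highest value within 10 rows, joined by a grey line; for Apoe the named row is under 1 FPKM in 8 libraries.

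Apoa2 lies on chromosome 1 (GRCm38, chr1:171221564-171226379). The value read was 4735, 4697 and 4418 FPKM in the WT fed livers and 4842 and 4151 FPKM in the WT fasted livers. It was 5428 and 4302 FPKM in the p21KO fed livers and 5888 and 4633 FPKM in the p21KO fasted livers. All groups overlapped, and the highest and lowest values both belonged to fasted mice. The value stood on the named row in 2 libraries and 1 to 3 rows after it in the other 7, where the named row held 25.2 to 33.6 FPKM. It was 35.3 to 58.4 times the second highest value within 10 rows, and at least 26.7 times the second highest within 80 rows.

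In limma with adjustment over the 81 genes, Apoa2 was not called in any comparison. The log2 fold change with fasting was -0.04 in WT livers (95% interval -0.44 to 0.35, adjusted p = 0.919) and 0.11 in p21KO livers (-0.32 to 0.54, adjusted p = 0.665). The p21KO livers differed from WT by 0.07 when fed (-0.33 to 0.46, adjusted p = 0.927) and by 0.22 after fasting (-0.21 to 0.65, adjusted p = 0.706). The intervals leave room for changes of either sign.

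Apoh lies on chromosome 11 (chr11:108395297-108414396). The value read was 986, 1049 and 929 FPKM in the WT fed livers and 1063 and 1009.5 FPKM in the WT fasted livers. It was 1037 and 890 FPKM in the p21KO fed livers and 1050 and 1082 FPKM in the p21KO fasted livers. The fasted and fed ranges overlapped in WT livers but not in p21KO livers. Such a separation by diet was found for 60.5% of the 81 genes in p21KO livers and 66.7% in WT livers, and a separation by genotype for 29.6% in fed and 29.6% in fasted livers. The value stood on the named row in 5 libraries and 1 row before it in 4. It was 23.9 to 33.3 times the second highest within 10 rows, but 5.43 to 6.63 times the second highest within 80 rows.

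Apoh was not called with fasting in WT livers (log2 fold change 0.07, 95% interval -0.17 to 0.31, limma adjusted p = 0.655) or in p21KO livers (0.15, -0.11 to 0.41, adjusted p = 0.345). The direction of Apoh with fasting turned after quantile normalization, which gives each gene the mean value of its rank among the 81 genes. Averaged over both genotypes, Apoh stayed higher after fasting by 0.25 at equal summed FPKM and by 0.15 at an equal upper quartile. After quantile normalization it was -0.30 in WT livers (adjusted p = 0.0334) and -0.29 averaged over both genotypes (adjusted p = 0.0071), whereas at equal summed FPKM it was higher in fasted p21KO livers by 0.42 (adjusted p = 0.0400). Quantile normalization moved the median of the 81 genes by -0.15 in the averaged comparison, and equal summed FPKM moved it by 0.27 in p21KO livers. The genotype difference for Apoh was -0.04 when fed (adjusted p = 0.927) and 0.04 after fasting (adjusted p = 0.995).

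For reference, limma called 37% of the 81 genes with fasting in WT livers, 29.6% in p21KO livers and 50.6% when fasting was averaged over both genotypes. Between genotypes it called 1.23% in fed livers, a single gene, Hpx. It called 0 genes between genotypes after fasting (10 at an unadjusted p under 0.05) and 0 for the difference of the fasting effect (7 at an unadjusted p under 0.05). Some of the 81 genes may be misread, which bears on these shares and on the shares separated by diet. Mat1a was read at 286 to 335 FPKM in fed livers, 3 to 10 rows before its name. In fasted livers it was read at 2661 to 3871 FPKM, from 1 row before to 4 rows after its name. Its fed and fasted values may not belong to the same gene, and how many such genes the 81 hold was not tested. The standard deviation of log2 values over the 9 libraries was 0.160 for Apoa2 and 0.0947 for Apoh, against a median of 0.224, and 24 and 4 of the 81 genes respectively varied less. An exact permutation test with diet permuted within genotype (60 arrangements, two-sided, smallest possible p = 0.0167) gave p = 0.75 for Apoa2 and p = 0.117 for Apoh, with p = 0.0833 for Apoh at equal summed FPKM and p = 0.0333 at an equal upper quartile. The same exact permutation test of genotype within diet gave p = 0.3 and p = 0.983.

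Apoe, on chromosome 7 (chr7:19696244-19701310), could be read only when the window was widened to 20 rows, which left 42 genes. The named row held under 1 FPKM in 8 of the 9 libraries. The value read was 6320, 6276 and 7108 FPKM in the WT fed livers and 6585 and 5953 FPKM in the WT fasted livers. It was 6605 and 5814 FPKM in the p21KO fed livers and 5504 and 6553 FPKM in the p21KO fasted livers. The offset ran from 0 to 7 rows before the name in 8 libraries, and in p21KO fed replicate 2 it was 14 rows before it. All groups overlapped. Limma called 50% of the 42 genes with fasting in WT livers and 38.1% in p21KO livers, and Apoe in neither. The log2 fold change with fasting was -0.07 in WT livers (95% interval -0.37 to 0.24, limma adjusted p = 0.732) and -0.05 in p21KO livers (-0.38 to 0.29, adjusted p = 0.823). At equal summed FPKM the latter became 0.23 (adjusted p = 0.203), where that scaling by itself moved the median of the 81 genes by 0.27. Genotype gave -0.08 in fed and -0.06 in fasted livers (adjusted p = 0.827 and 0.949), and the exact permutation test gave p = 0.483 for diet and p = 0.417 for genotype.

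Apob and Apoc1 had a highest value that stood out less from its neighbours, and were read only with a lower requirement, chosen after the data had been seen. Apob, on chromosome 12 (chr12:7977629-8016839), was at least 2.5 times the second highest value within 10 rows in all libraries, a reading that held for 152 genes. This ratio was 2.93 to 4.33 in fed and 6.00 to 9.28 in fasted livers, so only the fasted values met the factor of 5. How clearly the value stood out thus differed with diet. Within 80 rows the ratio was at least 2.13. The value read was 269.5, 284.7 and 286.4 FPKM in the WT fed livers and 401.3 and 326.8 FPKM in the WT fasted livers. It was 272.2 and 297.0 FPKM in the p21KO fed livers and 316.9 and 361.7 FPKM in the p21KO fasted livers. All 4 fasted values lay above all 5 fed values, and a separation of all fasted from all fed livers was found for 47.4% of the 152 genes. It stood on the named row in 7 libraries, and 8 rows before it in WT fed replicate 2 and 3 rows before it in WT fasted replicate 2.

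Apob was higher after fasting in WT livers, by a log2 fold change of 0.37 (95% interval 0.10 to 0.64, limma adjusted p = 0.0389), and averaged over both genotypes, by 0.31 (0.11 to 0.51, adjusted p = 0.0155). In p21KO livers it was 0.25 (-0.05 to 0.55, adjusted p = 0.165), and the difference between genotypes was -0.12 (-0.52 to 0.28, adjusted p = 0.931). At equal summed FPKM these became 0.52 (adjusted p = 0.0144, called) and 0.14 (adjusted p = 0.641), where that scaling moved the median of the 81 genes by 0.27 and 0.26. Limma called 38.8% of the 152 genes in WT livers (21.7% higher), 34.9% in p21KO livers and 53.3% in the averaged comparison (29.6% higher), so a call was common at this reading. The WT call was lost without any 1 of WT fed replicates 1, 2 and 3 or WT fasted replicate 1 (adjusted p = 0.121, 0.0787, 0.0875 and 0.311), after quantile normalization (log2 fold change 0.26, adjusted p = 0.143) and with a block for the replicate number (adjusted p = 0.110). The averaged call was lost without WT fasted replicate 1 (adjusted p = 0.0686) or p21KO fed replicate 1 (adjusted p = 0.0505), and after quantile normalization (log2 fold change 0.23, adjusted p = 0.0733). The exact permutation test gave p = 0.0167 for diet, the smallest it can give, and p = 0.65 for genotype.

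Apoc1, on chromosome 7 (chr7:19689480-19692659), was at least 2 times the second highest value, a reading that held for 178 genes. This ratio was 3.74 to 4.25 in fed and 2.21 to 2.55 in fasted livers, so the value stood out less in fasted livers. The value read was 2049, 2101 and 2030 FPKM in the WT fed livers and 1824 and 1436 FPKM in the WT fasted livers. It was 2400 and 1801 FPKM in the p21KO fed livers and 1459 and 1534 FPKM in the p21KO fasted livers. Fasted values lay below fed values within each genotype, and the ranges overlapped when genotypes were joined. A separation of fasted from fed livers was found for 67.4% of the 178 genes in WT and 61.2% in p21KO livers. It stood on the named row in 7 libraries and 1 or 2 rows before it in the other two.

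Averaged over both genotypes, Apoc1 was lower after fasting by a log2 fold change of -0.41 (95% interval -0.69 to -0.14, limma adjusted p = 0.0211), in a comparison that called 50% of the 178 genes, and 23% of the 178 as lower. The single-genotype values were -0.35 in WT livers (adjusted p = 0.140) and -0.47 in p21KO livers (adjusted p = 0.0755), and neither was called, against 31.5% and 28.7% of the 178 genes. The value in p21KO livers was called after quantile normalization (-0.82, adjusted p = 0.0169) and without p21KO fed replicate 2 (-0.68, adjusted p = 0.0304), and was -0.27 without p21KO fed replicate 1 (adjusted p = 0.318). The averaged call was lost without WT fasted replicate 2 (adjusted p = 0.0886) or p21KO fed replicate 1 (adjusted p = 0.0558) and at equal summed FPKM (-0.27, adjusted p = 0.131). The exact permutation test gave p = 0.0167 for diet, the smallest it can give, and p = 0.0667 at equal summed FPKM. The same exact test gave p = 0.683 for genotype.

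**Figure D2:**
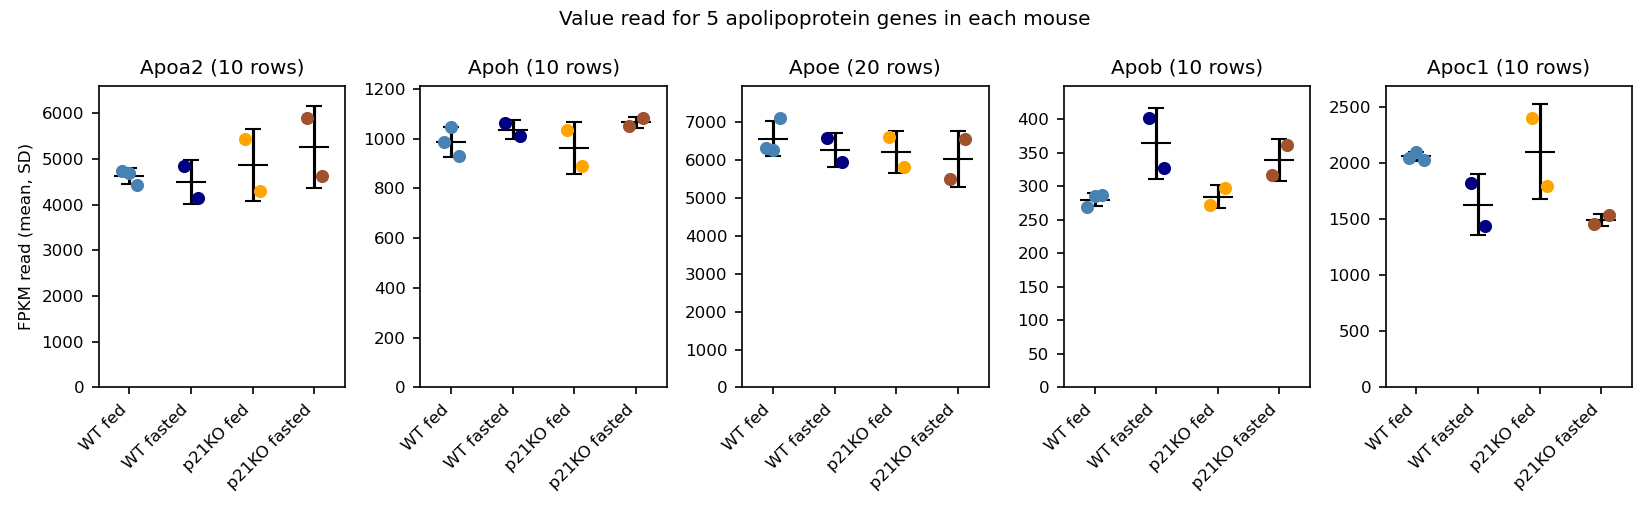
FPKM read for Apoa2, Apoh, Apoe, Apob and Apoc1 in each mouse, by group. Points are mice, horizontal marks the group mean and bars the SD (n = 3 for WT fed, n = 2 otherwise); the 4 fasted values of Apob lie above the 5 fed ones.

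**Figure D3:**
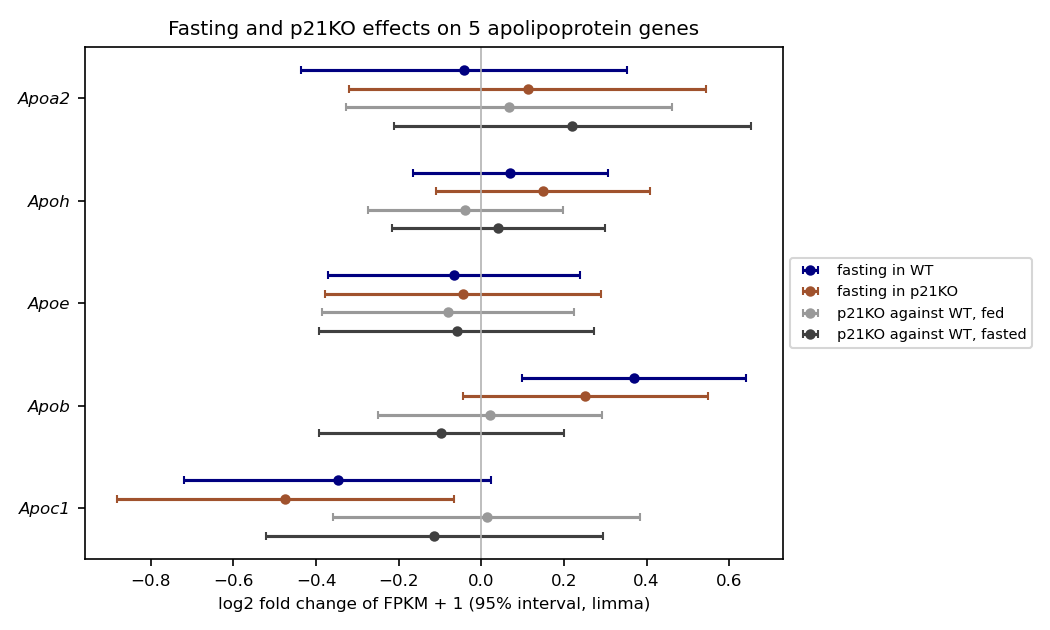
Log2 fold change of FPKM + 1 with its 95% interval from limma for the same 5 genes, for fasting in WT and in p21KO livers and for p21KO against WT in fed and in fasted livers. All intervals of the genotype comparisons span 0, and the interval for Apob with fasting in WT livers runs from 0.10 to 0.64.

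Apoa1, Apoc3, Apoa4 and Apoa5 are neighbours on chromosome 9 (Apoa1 at chr9:46228630-46230469, Apoc3 at chr9:46233050-46235636, Apoa4 at chr9:46240844-46243458 and Apoa5 at chr9:46268608-46271921). Their names stand within 9 rows, so the highest value within 10 rows was the same one for all 4 genes, 4060 to 8367 FPKM, and none of the 4 could be read. The named row of Apoa1 held this value in 5 libraries and 1.78 to 1030 FPKM in the other 4. On the named row, Apoc3 ranged from 1.45 to 1275 FPKM, Apoa4 from 1.36 to 4354 FPKM and Apoa5 from 5.18e-05 to 649 FPKM.

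The values of at least 50 FPKM within 10 rows of the name Apoa1 were therefore described by size, in ranges chosen after the values had been seen and without a test. Each library held 1 value of 4000 to 9000 FPKM, which was 4060 to 5577 FPKM in fed and 4348 to 8367 FPKM in fasted livers. Each also held 1 value that was 966 to 1148 FPKM in fed and 1007 to 1394 FPKM in fasted livers. Both pairs of ranges overlapped. In p21KO fasted replicate 2, the library that fits the names, these stood on the rows of Apoa1 and Apoc3.

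Another value in each library, between 200 and 700 FPKM, was 243 to 408 FPKM in fed livers (mean 350.0 ± 65.9, SD, n = 5) and 541 to 649 FPKM in fasted livers (mean 603 ± 52.3, SD, n = 4), with no overlap. All fasted livers were likewise separated from all fed livers for 45.7% of the 81 genes, so a separation is common. It stood 1 to 5 rows after the name Apoa1 in fed livers and 6 or 7 rows after it in fasted livers, on the row named Apoa5 in p21KO fasted replicate 2. Because its position differed between diets, the fed and fasted values may not belong to the same gene. A value of 1500 to 3500 FPKM appeared in 3 of 4 fasted livers (2569 and 2999 FPKM in WT and 1956 FPKM in p21KO fasted replicate 2, on the row named Apoa4) and in 0 of 5 fed livers. This range was drawn around the 3 values after they had been seen, so the split by diet is a description and was not tested. They stood 2, 5 and 1 rows after the name Apoa1, and whether they belong to the same gene is not known. In p21KO fasted replicate 1, a second large value of 5271 FPKM stood 23 rows after the name Apoa1, so which of its large values belongs to which gene is unclear.

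Near the name Apoc1, each library held 3 values of at least 50 FPKM. The second was 482 to 576 FPKM in fed and 564 to 810 FPKM in fasted livers, which overlapped. The third was 111 to 159 FPKM in fed livers (mean 134 ± 20.5, SD, n = 5) and 251 to 349 FPKM in fasted livers (mean 299 ± 43.8, SD, n = 4), with no overlap, as for 45.7% of the 81 genes. The third value stood 3 to 6 rows before the name Apoc1 in fed livers and 3 or 4 rows before it in fasted livers. Its fed and fasted values may therefore not belong to the same gene. In p21KO fasted replicate 2 they stood on the rows named Apoc4 and Apoc2, the latter the gene of the cofactor of lipoprotein lipase. The names Apoc1 and Apoe stand 128 rows apart in the matrix, although the genes adjoin on chromosome 7.

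**Figure D4:**
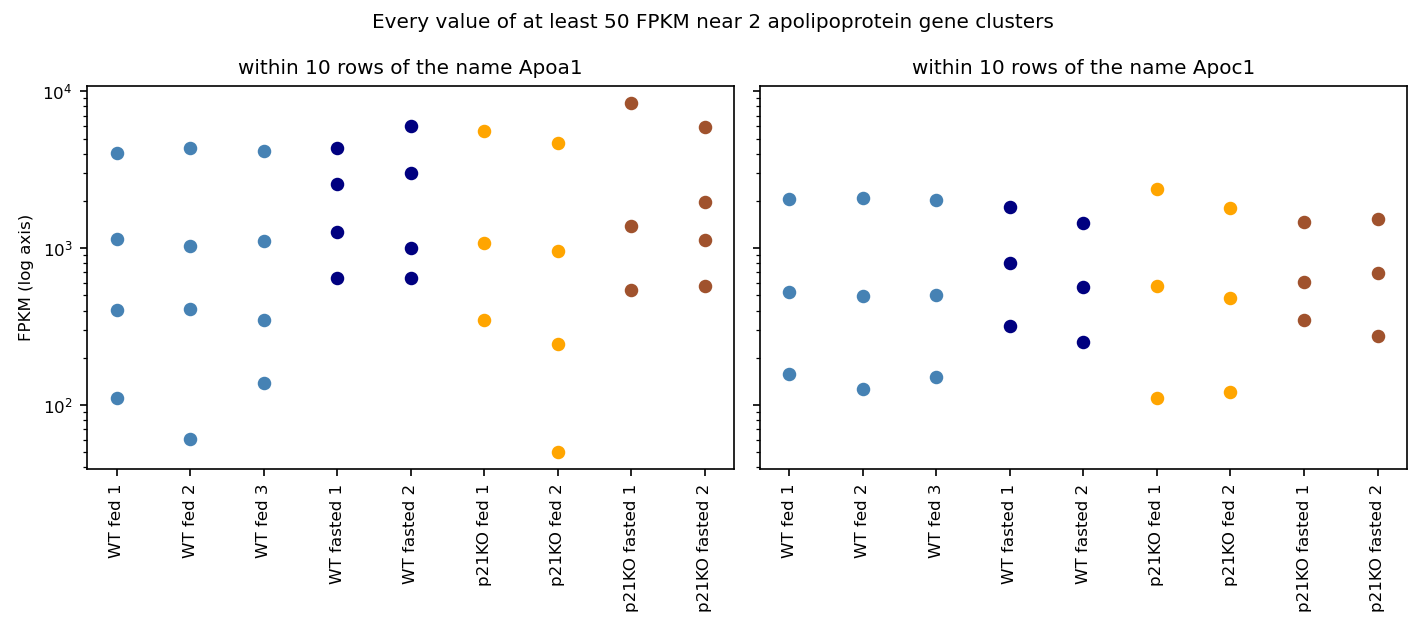
Every value of at least 50 FPKM (log axis) within 10 rows of the names Apoa1 and Apoc1, by library and coloured by group. Near Apoc1 the lowest value of each library lies between 111 and 159 FPKM in fed and between 251 and 349 FPKM in fasted livers.

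Of 35 other genes of lipoprotein metabolism, 3 could be read: Apom, which carries sphingosine-1-phosphate on high density lipoproteins, Lcat, which esterifies cholesterol on them, and Pon1, an esterase bound to them. Apom was 191, 193 and 213 FPKM in WT fed, 171 and 161 FPKM in WT fasted, 219 and 198 FPKM in p21KO fed, and 180 and 154 FPKM in p21KO fasted livers, so that all fasted values lay below all fed ones. Such a separation of all fasted from all fed livers was found for 45.7% of the 81 genes. Averaged over both genotypes, Apom was lower after fasting by a log2 fold change of -0.29 (SE 0.086, limma adjusted p = 0.0190), a call lost at equal summed FPKM (-0.15, adjusted p = 0.262) and without WT fasted replicate 2, p21KO fed replicate 1 or p21KO fasted replicate 2 (adjusted p = 0.0752, 0.0649 and 0.0503). Lcat (0.08, adjusted p = 0.501) and Pon1 (-0.06, adjusted p = 0.570) were not called. The 5 readable hepatocyte markers were all called lower in the same comparison, which called 23.5% of the 81 genes lower, from -0.29 for Serpinc1 to -0.80 for Ttr, and their part in the result for Apom was not tested.

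The readable genes outside the 9 whose centred log2 values over the 9 libraries were nearest to Apoa2 were Pon1 (root mean square difference 0.0969) and Tpt1 (0.112), and to Apoh they were Atp5h (0.0652) and Slc38a4 (0.0707), among 79 genes compared.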

How the data were processed

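Liver RNA of 9 mice was sequenced, and the table the authors deposited holds FPKM with a column for each mouse, from reads aligned to mm10. In their processing notes the submitters name Cufflinks (1.3.0 and 2.2.1), SAMtools 0.1.16, Bowtie 0.12.7 and TopHat2 2.0.4. The paper's methods and the labels name different library kits and tool versions. No scaling between libraries is stated. Groups were taken from the labels, which describe separate mice.

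From the deposited FPKM, the highest value within 10 rows of each name was read as described in the results. The order of rows was inferred from the values and is not described in the sources used here. Values were compared as log2(FPKM + 1) with limma 3.58.1 in R 4.3.3 (4 group means over all 9 libraries, trend in the variance, Benjamini-Hochberg adjustment over all genes read, called at an adjusted p under 0.05, two-sided), and single genes with exact permutation tests. With 2 or 3 mice per group, comparisons within 1 genotype have no exact test that can pass 0.05. The reading and fit were also run on simulated data, in which no row was moved as far as the edge of the window. In the libraries, offsets of the genes read ran up to 10 rows before the name, the edge of the window. A value beyond the window would be missed and a neighbour could be read instead. Simulated data cannot show whether this happened in these libraries. The genes named were the 9 apolipoprotein genes, every readable gene of the lipoprotein list and the 2 nearest genes to each readable one. Apoc2, Apoc4, Hpx, Mat1a, Serpinc1, Ttr and the other genes on neighbouring rows were named after their values were seen or from the marker list. The genes and lists were chosen with earlier results of these data known. Alternatives were other windows, factors and filters, the rows as deposited, scalings, moderation, the compared groups without the others, leaving out each library and a block for the replicate number. Tools were SciPy 1.17.1, pandas 2.3.3, NumPy 2.4.6 and matplotlib 3.10.9 in Python 3.11.15. Coordinates are from RefSeq on GRCm38.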

Additional observations from a re-analysis of the deposited data

How the results depend on the processing

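With the rows as deposited, the calls among the 81 genes fell to 1 for fasting in WT livers, 2 in p21KO livers and 5 averaged, and were 3 between genotypes when fed, 1 after fasting and 3 for the difference. At least 3, 10, 2.5 and 2 times the second highest value gave 52, 17, 59 and 56 calls for fasting in WT livers, 44, 12, 53 and 51 in p21KO livers, and 69, 16, 81 and 89 averaged, out of 133, 40, 152 and 178 genes read. As shares these were 39.1%, 42.5%, 38.8% and 31.5% in WT livers, 33.1%, 30%, 34.9% and 28.7% in p21KO livers and 51.9%, 40%, 53.3% and 50% averaged, against 37%, 29.6% and 50.6% of the 81 genes. A window of 20 rows gave 21 of 42 genes averaged. The last 2 factors were chosen after seeing the data, and the factor of 2 read 4 of the 9 apolipoprotein genes. Between genotypes when fed, the factors of 3 and 10 gave 2 and 4 calls and equal summed FPKM 3. There were 0 calls within 5 rows (14 at an unadjusted p under 0.05), at an equal upper quartile (8), after quantile normalization (8), in the groups compared alone (11) and with the replicate block (7). After fasting there was 1 call at the factor of 10, within 20 rows, at equal summed FPKM and at an equal upper quartile, and 2 after quantile normalization and with robust moderation; quantile normalization gave 1 for the difference. Leaving out each library gave 10 to 42 calls for fasting in WT livers, 13 to 33 in p21KO livers, 30 to 48 averaged, 0 to 3 and 0 to 7 between genotypes when fed and fasted, and 0 to 3 for the difference; the 7 and the 3 for the difference came without p21KO fasted replicate 2, the 10 without WT fasted replicate 2 and the 13 without p21KO fed replicate 1.

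Replicate numbers are shared between groups in the labels but mark no known pairing. Deviations from the group means of same-numbered libraries correlated at 0.32 to 0.71 in the 6 pairs without p21KO fed livers and at -0.11 to 0.048 in the 6 pairs with them, and 5 of 9 libraries correlated best with one of their own number. In a group of 2 the deviations mirror each other, so pairs between groups of 2 gave the same correlation for both numbers. The pairs are therefore not all separate evidence, and the count of best matches is bound in the same way. Since not every pair was above 0.1, the numbers were not taken to pair the mice, and a shared source of some of them was not tested. With the replicate block, calls for fasting in WT livers went from 30 to 19, the call of Apob in WT livers was lost (adjusted p = 0.110) and so was the averaged call of Apoc1 (adjusted p = 0.0532), while the averaged calls of Apob (adjusted p = 0.0471) and Apom (adjusted p = 0.0385) stayed.

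Signs of log2 fold changes turned as follows. With the rows as deposited, Apoa2 gave 3.41 for fasting in WT livers, -0.022 and -0.052 between genotypes when fed and fasted, -0.030 for the difference and -0.037 in the permutation test of genotype, Apoh gave 0.95 between genotypes when fed and Lcat -0.53 for fasting averaged. Quantile normalization gave Apoa2 0.30 in WT livers and -0.11 for the difference, Apoh -0.30, -0.29 and -0.29 for fasting in WT, in p21KO and averaged and 0.092 between genotypes when fed, and Lcat -0.071. Equal summed FPKM gave Apoa2 -0.022 between genotypes when fed and Pon1 0.080 for fasting averaged, and an equal upper quartile gave Apoh 0.0025 between genotypes when fed. Leaving out each library, Apoa2 ranged from -0.153 to 0.069 for fasting in WT, -0.061 to 0.285 in p21KO and -0.051 to 0.122 averaged, -0.101 to 0.234 between genotypes when fed and -0.019 to 0.327 for the difference. Apoh ranged from -0.149 to 0.072 between genotypes when fed and -0.031 to 0.190 for the difference, and Lcat from -0.017 to 0.179. The cause was not tested.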
